A study of Mus musculus with 2 samples.

Results

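NF-kB is the family of dimeric transcription factors that carries signals from TNF, IL-1 and Toll-like receptors to inflammatory and survival genes. The 8 genes described here, of 21728 protein-coding genes in the annotation, encode its 5 subunits (Rel, Rela, Relb, Nfkb1 and Nfkb2) and 3 of its inhibitors (Nfkbia, Nfkbiz and Tnfaip3), and they were chosen by name. Accessibility was measured by single-cell ATAC-seq, in which a transposase cuts open chromatin in isolated nuclei. The nuclei were from hematopoietic stem cells (HSCs) of C57BL/6 bone marrow, with 1 library at 10 weeks of age (young HSCs) and 1 library at 20 months (aged HSCs). Both were sorted as Sca-1+ c-kit+ CD150+ cells that lacked IL-7, lineage markers, CD34, CD48 and Flt3, as the labels spell them, and the methods give the mice as female. How many mice each library came from is not given in the sources used here. Each age has a single library, so no difference could be set against the spread between mice, no test was made, and every interval below is an exact 95% interval that covers counting error only.

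In resting cells NF-kB dimers are held in the cytoplasm by IkB proteins such as IkBa, the product of Nfkbia. Signals from surface receptors lead the IKK kinases to mark IkBa for degradation, and the freed dimers enter the nucleus and bind kB sites. Nfkbia and Tnfaip3 are themselves classical targets of NF-kB, which closes a negative feedback loop. In blood, this pathway shapes the response of stem and progenitor cells to infection and inflammatory cytokines.

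Barcodes called as cells with 3000 to 20000 fragments in the authors' peaks were 4887 of 5028 called for young HSCs, and 3405 of 3694 called for aged HSCs. They held 50065741 and 38659456 unique fragments, of which 69.2% and 67.7% lay in peaks called here in each library and then merged. The median was 9890 fragments per cell in young and 11020 in aged HSCs. The median per cell of the enrichment of cut sites around gene starts over their flanks was 5.32 in young and 4.91 in aged HSCs. Subnucleosomal fragments, those shorter than the DNA wrapped around 1 nucleosome, made up 59.8% of young and 55.0% of aged fragments. Cells with an excess of loci under 3 or more overlapping fragments were marked as doublets, which applied to 204 young and 249 aged cells. They were kept, and 26 cell barcodes occurred in both libraries. Levels below are fragments per 1000000 in-peak fragments (FPM). The summed level of marker promoters was 152 FPM in young and 150 FPM in aged HSCs for 8 HSC genes, 32.7 and 33.4 for 5 B cell genes, 9.78 and 7.30 for 5 T cell genes, 47.7 and 44.9 for 5 erythroid genes, 6.98 and 6.77 for 6 genes of mature myeloid cells, and 111 and 105 for 5 megakaryocyte genes. The mean per gene was therefore higher for the megakaryocyte genes (22.1 FPM in young HSCs) than for the HSC genes (19.0 FPM). Among the HSC genes the promoters of Kit (51.3 and 47.9 FPM) and Hlf (35.6 and 33.7 FPM) were the most accessible, whereas Ly6a was at 3.0 and 2.83 FPM and the annotated 5′ end of Mecom at 0.52 and 0.54 FPM, a level like that of mature myeloid genes. No marker was at 0 in either library, and the part of other cells in the results below was not tested.

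All 8 promoters, taken as the annotated start of the gene with 1 kb on either side, were open in both libraries, and none reached a log2 ratio of aged to young FPM of 0.32 in either direction, the threshold used for promoters and gene bodies. Of the 15003 protein-coding promoters with at least 100 fragments, 8.35% were higher and 2.60% lower in aged HSCs past that threshold. The ratio, with 1 fragment added to each count, was below 0 at all 8, as it was at 65.3% of all promoters, but with the median promoter set to 0 Rela (0.05) and Tnfaip3 (0.04) stood above 0. Its median was -0.10 over the 8 and -0.05 over all promoters, and 6 of the 8 lay below the latter. How many of all promoters had an interval that left out 0 was not counted.

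Among the subunits with a transactivation domain, Rel encodes c-Rel, which acts mainly in lymphoid and myeloid cells. Its promoter (GRCm38 chromosome 11, 23769970 to 23771970) took 66.2 FPM in young and 59.0 FPM in aged HSCs, from 2293 and 1544 fragments. The log2 ratio was -0.16 (-0.26 to -0.07), so the aged library was lower beyond counting error, and 14.9% of all promoters had a lower ratio. Relb, the partner of p52 in the alternative pathway, had the most accessible promoter of the 8 (chromosome 7, 19628438 to 19630438). It held 105 FPM in young and 90.9 FPM in aged HSCs, a log2 ratio of -0.20 (-0.28 to -0.13). In level it stood above 99.3% of all promoters, and 8.42% of them had a lower ratio. Rela encodes p65, the main activating subunit of the canonical pathway, and its promoter (chromosome 19, 5636483 to 5638483) was at 46.7 FPM in young and 46.5 FPM in aged HSCs. That ratio of -0.01 (-0.12 to 0.10) lay within counting error.

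The remaining subunits are made as precursors that hold an inhibitory tail. Nfkb1 encodes p105, the source of p50, and its promoter (chromosome 3, 135690547 to 135692547) was at 30.9 FPM in young and 29.2 FPM in aged HSCs. The log2 ratio of -0.08 (-0.22 to 0.05) was not distinguishable from 0 at this depth. Nfkb2 encodes p100, which is cut to p52 when the alternative pathway is active. Its promoter (chromosome 19, 46303320 to 46305320) had the lowest ratio of the 8, with 50.3 FPM in young and 42.6 FPM in aged HSCs, at -0.24 (-0.35 to -0.13), and 5.75% of all promoters had a lower ratio. The Nfkb2 gene overlaps Psd and AC114539.1, so fragments there cannot be ascribed to Nfkb2 alone.

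The inhibitors act at separate steps. Nfkbia (promoter on chromosome 12, 55491647 to 55493647) had 54.6 FPM in young and 50.4 FPM in aged HSCs, a log2 ratio of -0.12 (-0.22 to -0.01) whose interval ended just below 0. Of all promoters, 28.4% had a lower ratio. Nfkbiz encodes IkBz, an atypical nuclear IkB that also helps to induce a group of secondary response genes. Its promoter (chromosome 16, 55837899 to 55839899) was at 32.5 FPM in young and 30.8 FPM in aged HSCs, at -0.08 (-0.21 to 0.06). Tnfaip3 encodes A20, a ubiquitin-editing enzyme that stops signalling between receptor and IKK, and its promoter (chromosome 10, 19014657 to 19016657) was at 49.3 FPM in young and 48.9 FPM in aged HSCs, at -0.01 (-0.12 to 0.09). Both of the latter ratios included 0.

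**Figure D1:**
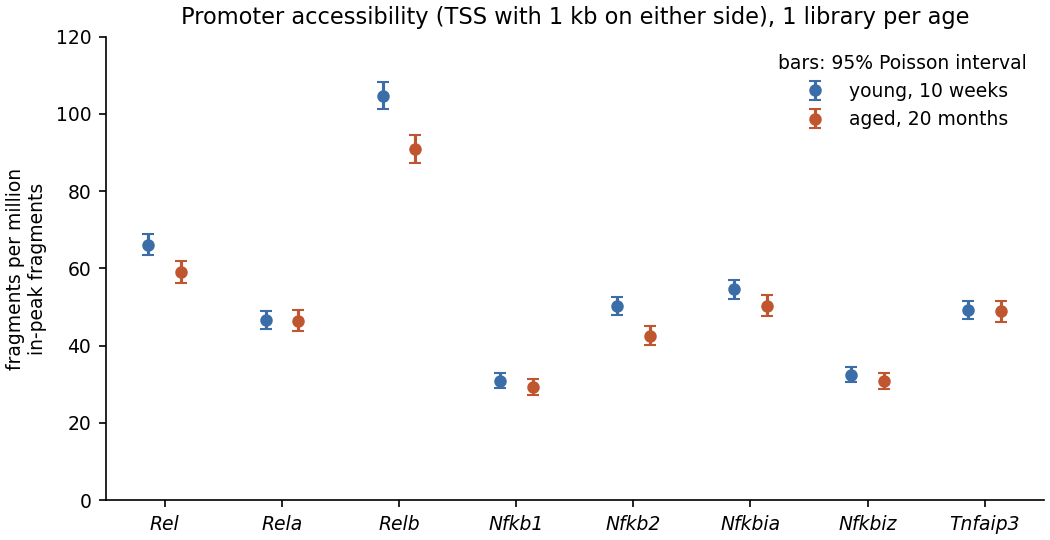
Promoter accessibility of the 5 NF-kB subunit genes and 3 inhibitor genes (x axis) in FPM (y axis), with 1 point per library and bars for the exact 95% Poisson interval. Relb is highest at 105 FPM in young and 90.9 FPM in aged HSCs, while the points of Rela, Nfkb1, Nfkbiz and Tnfaip3 are close to each other between the ages.

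Since every promoter window has the same width, their levels can be ordered. Over both libraries Nfkb1 (30.2 FPM) and Nfkbiz (31.8 FPM) were lowest and their intervals overlapped in each library. Rela (46.6 FPM), Nfkb2 (47.0 FPM) and Tnfaip3 (49.1 FPM) followed, and each overlapped with its neighbour in at least 1 library. Nfkb2 changed place between the libraries, since it stood above Tnfaip3 in young HSCs and below Rela in aged HSCs. Nfkbia (52.8 FPM) lay above Tnfaip3 in young HSCs, with intervals of 52.1 to 57.1 against 47.0 to 51.7 FPM, and overlapped with it in aged HSCs. Rel (63.1 FPM) and Relb (98.8 FPM) were set apart from the others in both libraries, for windows at the annotated 5′ end of each gene.

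In these libraries, a smaller share of aged than of young cells carried a fragment at these promoters at equal depth. After each cell was thinned at random to 3000 fragments, at least 1 of the 8 promoters was hit in 59.8% of young cells (58.4 to 61.1) and 53.5% of aged cells (51.8 to 55.2). The mean over all possible draws was 59.1% in young and 54.9% in aged cells, a smaller gap than in the single draw. Without thinning the shares were 91.8% and 90.8%. Relb was the most often hit, in 19.9% of young and 17.1% of aged cells as the mean over all draws, and Nfkb1 was hit least often, in 6.21% of young and 5.71% of aged cells. Thinning counts fragments inside and outside peaks alike. The share in peaks and the enrichment around gene starts were themselves lower in aged HSCs, as given above, and their part in this drop was not tested. The intervals treat the cells of 1 library as units and cover counting error only. Shares of cells were not computed for other promoters, so the drop cannot be set against a general one. Of all promoters, 65.3% had a ratio below 0.

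Fragment lengths at the promoters moved with those of the libraries. At Nfkb1 the share of subnucleosomal fragments was 68.5% (65.6 to 71.2) in young and 57.9% (54.3 to 61.4) in aged HSCs. At Nfkbia it was 76.3% (74.3 to 78.2) against 71.8% (69.2 to 74.2). The Relb promoter had the highest share, with 80.3% (79.0 to 81.6) in young and 78.3% (76.6 to 79.9) in aged HSCs, intervals that overlap. Those of Nfkb2, Rel, Nfkbiz and Tnfaip3 also overlapped, with Rel at 65.2% in young and 63.7% in aged HSCs, and those of Rela did not. With only such short fragments counted, the log2 ratio of the Nfkb1 promoter was -0.23, outside the interval of its ratio over all fragments. Those of the other 7 promoters stayed within theirs, from -0.22 at Nfkb2 and -0.15 at Relb to -0.04 at Rela and 0.02 at Tnfaip3, which was then above 0.

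Sequences around matches to the kB consensus are shown for the promoters of Nfkb2, Rel, Nfkbia and Tnfaip3, since NF-kB binds this motif and these genes are known targets of it. The consensus was searched on both strands in RefSeq windows (GRCm38.p6) from 250 bases before to 50 after the start, which were at hand for 5 of the 8 genes, and 8.46% of 32851 such windows hold it. The window of Rela had no match. Promoters of Nfkb1, Relb and Nfkbiz were not searched. Each line runs 5′ to 3′ on the strand of the gene, with the match in capitals, and longer runs of capitals are overlapping matches.
Nfkb2, chr19:46304688-46304717, plus strand: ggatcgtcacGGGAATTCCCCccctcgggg
Nfkb2, chr19:46304716-46304745, plus strand: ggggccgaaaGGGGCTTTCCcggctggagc
Rel, chr11:23771042-23771071, minus strand: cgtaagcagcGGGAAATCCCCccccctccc
Nfkbia, chr12:55492657-55492686, minus strand: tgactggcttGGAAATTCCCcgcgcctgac
Tnfaip3, chr10:19015516-19015545, minus strand: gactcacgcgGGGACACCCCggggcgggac
Tnfaip3, chr10:19015403-19015432, minus strand: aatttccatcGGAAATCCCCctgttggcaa
RefSeq places 3 starts in Nfkb2, and the lines show matches around the first. The first match of Nfkb2 starts 39 bases before that start, that of Rel 92 bases before it and that of Nfkbia 29 bases before it. The promoters that hold these matches ran from the lowest ratio of the 8 (Nfkb2, -0.24) to one of the highest (Tnfaip3, -0.01).

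Over whole genes the ratios spread to both sides of 0. Gene bodies of 4 subunits were lower in aged HSCs beyond counting error, at log2 ratios of -0.26 (-0.36 to -0.15) for Rel, -0.24 (-0.32 to -0.16) for Nfkb2, -0.23 (-0.29 to -0.18) for Nfkb1 and -0.21 (-0.29 to -0.14) for Relb. Gene bodies of 2 inhibitors were higher beyond it, at 0.16 (0.07 to 0.25) for Tnfaip3 and 0.11 (0.04 to 0.17) for Nfkbiz. The Tnfaip3 count, 2126 young and 1792 aged fragments, includes the 86 and 206 of a single peak 6927 bp from the start, described below. Rela, at 0.07 (-0.06 to 0.19), and Nfkbia, at -0.08 (-0.19 to 0.03), included 0. None was past 0.32 in either direction, against 8.29% of 17667 gene bodies higher and 2.60% lower in aged HSCs. Of all gene bodies, 4.72% had a lower ratio than Rel, 5.42% than Nfkb2, 6.15% than Nfkb1 and 7.48% than Relb. For Tnfaip3 and Nfkbiz these shares were 82.1% and 76.1%. How many of all gene bodies had an interval that left out 0 was not counted. The median was -0.15 over the 8 and -0.02 over all gene bodies.

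Levels per length differed widely between the shortest and the longest gene. Nfkbia, 3.24 kb long, had 15.1 FPM per kb in young and 14.3 in aged HSCs, whereas Nfkb1, 107 kb long, had 1.91 and 1.63 FPM per kb. Without the first 1 kb of each gene, Tnfaip3 and Nfkbia stood higher. Tnfaip3 went from 17.6 FPM in young to 25.0 FPM in aged HSCs, a log2 ratio of 0.51 (0.34 to 0.67), and Nfkbia from 5.54 to 6.96 FPM, at 0.33 (0.03 to 0.63). These were the 2 of 8 past the threshold upwards, and Rel, at -0.35 (-0.51 to -0.20) with 27.9 FPM in young and 21.8 FPM in aged HSCs, was the 1 past it downwards. Over the 16576 genes with enough fragments left, 11.4% were higher and 5.0% lower past it. Nfkbiz, at 0.13 (0.06 to 0.20), and Rela, at 0.22 (0.02 to 0.43), stood above 0. Relb, at -0.27 (-0.41 to -0.13), Nfkb1, at -0.23 (-0.29 to -0.18), and Nfkb2, at -0.23 (-0.34 to -0.11), stood below it.

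**Figure D2:**
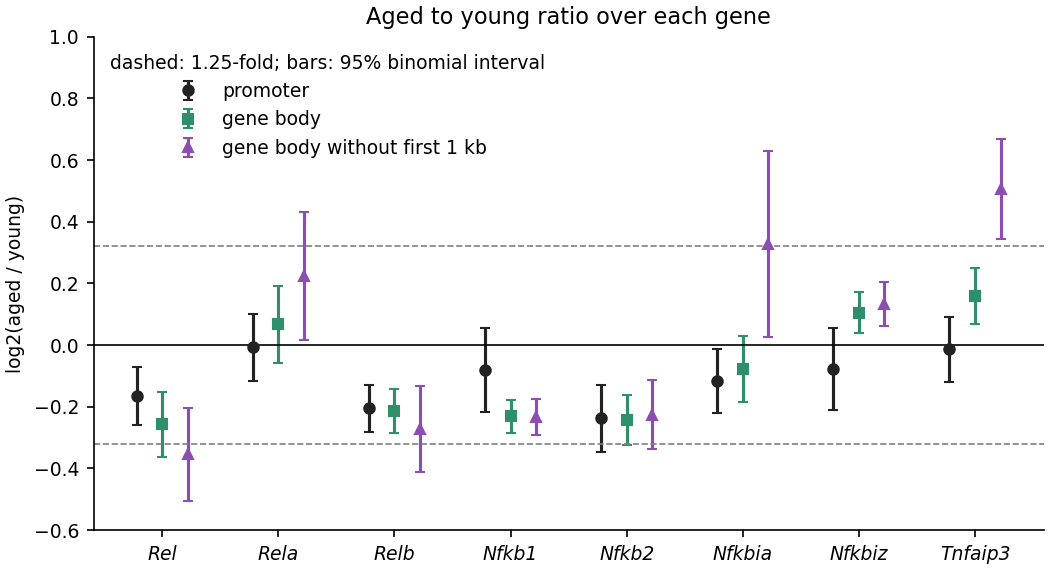
Log2 ratio of aged to young FPM (y axis) of each gene (x axis) at the promoter, over the gene body, and over the gene body without its first 1 kb, with bars for the exact 95% binomial interval of the ratio. Dashed lines mark the threshold of 0.32 in either direction, which Tnfaip3 (0.51) and Nfkbia (0.33) pass upwards and Rel (-0.35) downwards once the first 1 kb is left out.

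Several of these genes start at more than 1 place. Nfkbiz has an internal start 16761 bp from its 5′ end that was more accessible than the upstream one, with 52.3 FPM in young and 57.5 FPM in aged HSCs within 1 kb of it. There the log2 ratio was 0.14 (0.04 to 0.24), so the 2 promoters of Nfkbiz differed in sign, although the interval of the upstream one included 0. Nfkb2 has a start 480 bp inside the gene with 73.9 FPM in young and 63.4 FPM in aged HSCs, at -0.22 (-0.31 to -0.13), close to the ratio at its 5′ end and above the level of Rel in both libraries. Of the other internal starts, those with at least 100 fragments and a ratio past 0.32 were 3, all of low accessibility. A retained-intron transcript of Tnfaip3 starts 6812 bp inside the gene, where the window was at 5.40 FPM in young and 11.3 FPM in aged HSCs, at 1.06 (0.79 to 1.34). A Nfkbiz transcript that starts 20384 bp inside the gene was at 4.88 FPM in young and 7.26 FPM in aged HSCs, at 0.57 (0.27 to 0.88). A Nfkb1 transcript that starts 97106 bp inside was at 2.37 FPM in young and 1.26 FPM in aged HSCs, at -0.88 (-1.54 to -0.31), and reached 100 fragments only through the young library. These 3 starts were named after their values were seen. The share of internal starts of all genes past that threshold was not counted, so the 3 cannot be set against it.

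As over the whole genome, ratios past 1.5-fold were found at distal peaks more than at promoters. Around the 8 genes, with 50 kb on either side, 174 peaks were found and 135 had at least 100 fragments. Of these, 8 were higher and 9 lower in aged HSCs by 1.5-fold, against 9.63% and 4.0% of all 97246 such peaks. With subnucleosomal fragments alone, 4 were higher and 7 lower of the 108 that reached the same minimum, against 7.32% and 4.31% of 74222 peaks. Thus 8 of 135 is below the share of higher peaks in general and 9 of 135 above that of lower ones. Peaks were called distal when over 1 kb from the annotated 5′ end of every gene, so that peaks at internal starts count as distal. None of the 25 peaks within 1 kb of a 5′ end was past 1.5-fold in either direction, which 6.32% of all such peaks were. All 17 were among the 110 distal peaks, a share like the 15.6% of distal peaks in general. The median ratio was -0.13 over the 135 peaks and 0.00 over all peaks.

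**Figure D3:**
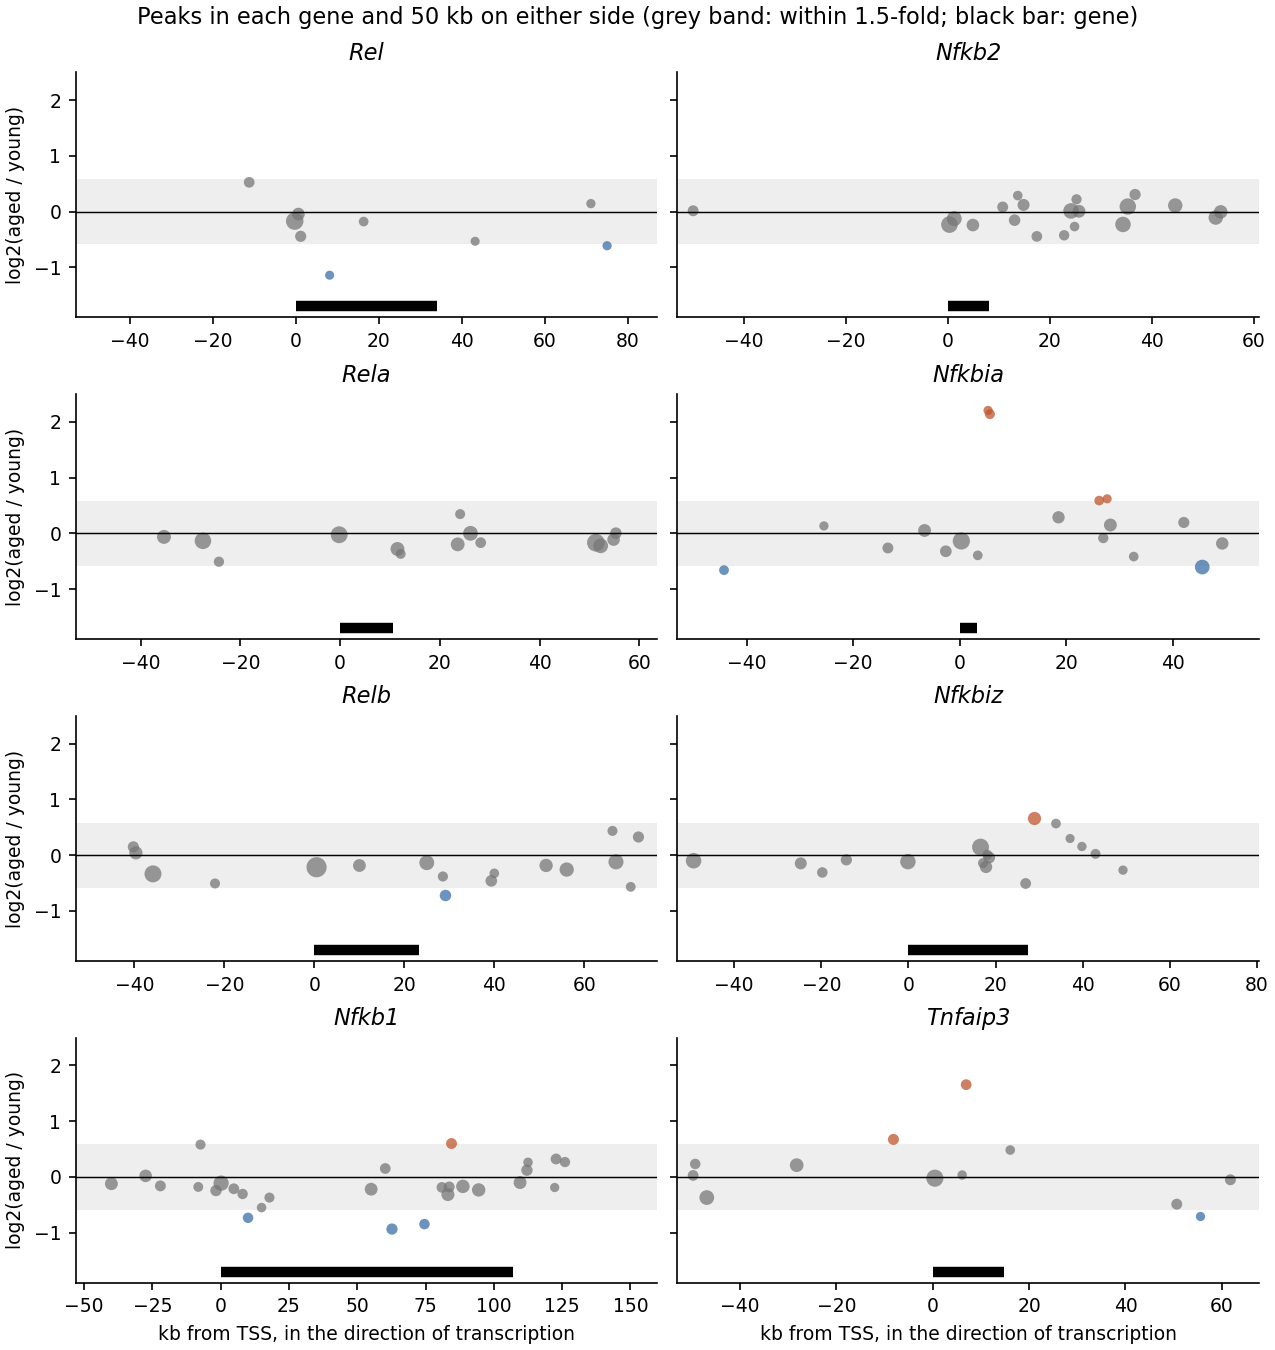
Log2 ratio of aged to young FPM (y axis) of the 135 peaks with at least 100 fragments against the distance from the start of each gene in kb (x axis), with the gene as a black bar, point area growing with the fragments in the peak, and peaks past 1.5-fold in colour. The pair of peaks just beyond the end of Nfkbia (2.14 and 2.21) and the peak inside Tnfaip3 (1.66) stand highest, and the peak in Rel (-1.14) lowest.

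The largest gains lay just past the 3′ end of Nfkbia. A peak 5677 bp from its start (chromosome 12, 55486781 to 55487160, intergenic) was at 1.21 FPM in young HSCs, from 42 fragments, and at 5.43 FPM in aged HSCs, from 142, a log2 ratio of 2.14 (1.66 to 2.70). Its neighbour 5332 bp from the start (55487231 to 55487400, intergenic) had 26 and 93 fragments, or 0.75 and 3.56 FPM, at 2.21 (1.60 to 2.93). Both reached the minimum of 100 fragments only through the aged library. Over the 620 bp that hold both, 55 of 4887 young cells (1.13%, 0.85 to 1.46) and 190 of 3405 aged cells (5.58%, 4.83 to 6.40) carried a fragment in either peak. After thinning, the peak 5677 bp from the start was hit in 0.20% of young cells (0.10 to 0.38) and 1.09% of aged cells (0.77 to 1.49). Most cells with a fragment had it in 1 of the peaks, while 11 young and 34 aged cells had fragment ends in both. The 620 bp held 57 young and 205 aged fragments, fewer than the counts of the 2 peaks added together. Some fragments therefore count in both peaks, and the pair is not 2 separate gains. The bin of 500 bp next to the pair on the side of the gene, outside any peak with enough fragments, was also higher, with 36 young and 81 aged fragments at 1.55 (0.99 to 2.18). A fragment with 1 end in the pair and 1 in the bin counts in both, so the bin is not a separate observation. The next peak, 3387 bp from the start, was not, with 100 young and 57 aged fragments at -0.39 (-0.90 to 0.08), and it and the bin were named after their values were seen.

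Tnfaip3 held the next largest gain, inside the gene and 6927 bp from its start (chromosome 10, 19008451 to 19009010). The annotation places a noncoding exon of Tnfaip3 there, and the start of the retained-intron transcript lies within the peak. Its level was 2.48 FPM in young HSCs (86 fragments) and 7.88 FPM in aged HSCs (206 fragments), at 1.66 (1.30 to 2.05). A fragment was found there in 1.6% of young cells (1.26 to 1.99) and 5.81% of aged cells (5.05 to 6.65), and after thinning to 3000 fragments per cell in 0.31% (0.17 to 0.51) and 1.56% (1.17 to 2.03). Fragments of this peak are also counted in the gene body, with and without its first 1 kb. They count again in the window of the retained-intron start and in the overlapping bins, so these are not separate gains. The next peak towards the start with at least 100 fragments, intronic and 6092 bp from it, was at 2.14 FPM in young and 2.18 FPM in aged HSCs, a ratio of 0.03 (-0.50 to 0.55). A bin of 500 bp that overlaps both peaks, with 45 young and 59 aged fragments, was at 0.79 (0.21 to 1.39). The 6092 bp peak and this bin were named after their values were seen. Upstream of Tnfaip3, a peak at -8168 bp from the start (19023411 to 19024240, intergenic) was at 4.50 FPM in young and 7.19 FPM in aged HSCs, at 0.67 (0.36 to 0.99). By contrast, a peak 55532 bp from the start and downstream of the gene (18959861 to 18960390) was lower, at 2.34 FPM in young and 1.41 FPM in aged HSCs and -0.70 (-1.33 to -0.15), and it reached 100 fragments only through the young library. The most accessible distal peak of this locus, at -46923 bp from the start, was at 26.9 FPM in young and 20.8 FPM in aged HSCs, at -0.37 (-0.53 to -0.22).

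Nfkbiz had 1 peak past 1.5-fold, at 28774 bp from its start and just beyond its 3′ end (chromosome 16, 55809361 to 55810890, intergenic). It was broad, 1530 bp wide, with 11.3 FPM in young and 18.0 FPM in aged HSCs, at 0.67 (0.47 to 0.87). It was hit in 7.24% of young cells (6.53 to 8.01) and 12.1% of aged cells (11.0 to 13.2), and after thinning in 2.25% (1.85 to 2.71) and 3.23% (2.66 to 3.88). The most accessible peak of this locus away from the 5′ end lay at the internal start, at 44.2 FPM in young and 48.9 FPM in aged HSCs and 0.14 (0.04 to 0.25). At Nfkbia a small peak 27692 bp from the start, with 49 young and 57 aged fragments, passed the same threshold at 0.62 with a wide interval (0.05 to 1.21), and it too reached 100 fragments only through the aged library. The most accessible distal peak of the Nfkbia locus, 45552 bp from the start (55446701 to 55447490, intergenic), went the other way, with 28.3 FPM in young and 18.6 FPM in aged HSCs, at -0.60 (-0.77 to -0.45). It was hit in 17.6% of young cells (16.5 to 18.7) and 12.7% of aged cells (11.6 to 13.9), and in the thinning in 6.04% (5.38 to 6.74) and 3.52% (2.93 to 4.20). Named after their values were seen, Nfkbia also had a peak at 26197 bp from the start with a ratio of 0.59 (0.12 to 1.07) and one at -44263 bp with a ratio of -0.66 (-1.17 to -0.19).

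**Figure D4:**
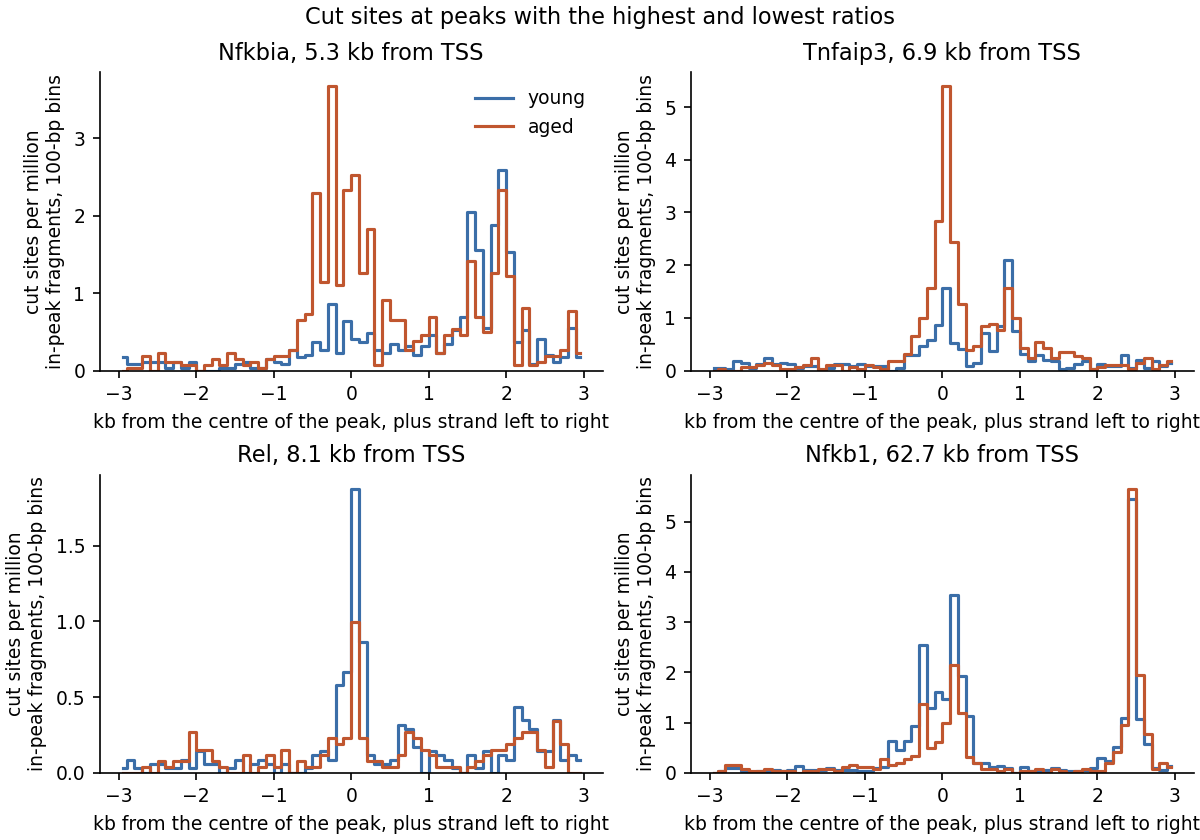
Transposase cut sites per 1000000 in-peak fragments in 100-bp bins (y axis) against the distance from the centre of the peak in kb along the plus strand (x axis), in young and aged HSCs. Aged HSCs are higher at the centre in the 2 upper panels (Nfkbia 5332 bp and Tnfaip3 6927 bp from the start) and lower in the 2 lower ones (Rel 8145 bp and Nfkb1 62727 bp from the start).

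Of the 9 lower peaks, 4 lay in introns of the subunit genes Rel and Nfkb1, which held 4 and 16 peaks with at least 100 fragments. Of the 35 such peaks inside the 8 genes, 2 were higher and 4 lower, against 9.63% and 4.0% of all peaks. The lowest ratio of all 135 was that of a peak in an intron of Rel, 8145 bp from its start (chromosome 11, 23762641 to 23763010), at 2.16 FPM in young HSCs (75 fragments) and 0.96 FPM in aged HSCs (25 fragments), a ratio of -1.14 (-1.89 to -0.51). It held just the minimum of 100 fragments and reached it only through the young library. It was hit in 1.49% of young cells (1.17 to 1.87) and 0.73% of aged cells (0.48 to 1.08), and in 1 random thinning in 0.39% (0.23 to 0.61) and 0.15% (0.05 to 0.34), where the intervals overlap. The most accessible distal peak of Rel, 1175 bp from the start, was also lower, at 6.78 FPM in young and 4.97 FPM in aged HSCs and -0.44 (-0.77 to -0.13), and a peak far downstream, in an intron of Pus10 and named after its value was seen, was at -0.61 (-1.24 to -0.05) and reached 100 fragments only through the young library. Nfkb1 had 3 intronic peaks past 1.5-fold downwards, at 62727 bp (7.79 FPM in young and 4.05 FPM in aged HSCs, -0.93, -1.28 to -0.61), 74617 bp (5.20 and 2.87 FPM, -0.85, -1.27 to -0.46) and 10047 bp (4.99 and 2.98 FPM, -0.73, -1.15 to -0.35) from its start. The first of these was hit in 5.28% of young cells (4.67 to 5.94) and 3.05% of aged cells (2.5 to 3.69), and in the thinning in 1.68% (1.34 to 2.08) and 0.85% (0.57 to 1.22). The other 2 were hit in 3.52% (3.02 to 4.07) and 3.42% (2.93 to 3.97) of young cells and in 2.06% (1.61 to 2.59) and 2.23% (1.76 to 2.79) of aged cells, while in the single thinned draw their intervals overlapped between the ages. One Nfkb1 intronic peak went past it upwards, at 84192 bp from the start, with 4.24 FPM in young and 6.46 FPM in aged HSCs, at 0.61 (0.28 to 0.94). Another, 60272 bp from the start and next to the lowest, was at 4.44 and 4.93 FPM, at 0.15 (-0.20 to 0.50). Both were named after their values were seen. The most accessible distal peak of Nfkb1, 88682 bp from the start, was at 16.5 FPM in young and 14.6 FPM in aged HSCs, at -0.17 (-0.36 to 0.02).

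Relb had 1 peak past 1.5-fold, 28938 bp from its start (chromosome 7, 19600321 to 19600680), with 8.25 FPM in young and 5.01 FPM in aged HSCs, at -0.71 (-1.03 to -0.42). It was hit in 5.46% of young cells (4.84 to 6.14) and 3.73% of aged cells (3.12 to 4.42), whereas in the single thinned draw the shares were 1.35% (1.05 to 1.72) and 1.26% (0.92 to 1.70), with intervals that overlap. It lies in an intron of Clasrp and of the noncoding gene Gm26890, so it cannot be ascribed to Relb by position. Around Rela and Nfkb2 no peak was past 1.5-fold, with ratios of 14 peaks from -0.51 to 0.35 at Rela and of 20 peaks from -0.45 to 0.31 at Nfkb2. These 3 gene-dense loci hold the starts of 6 other protein-coding genes at Relb and 5 each at Rela and Nfkb2, whereas the other 5 loci hold none. The most accessible distal peak of Rela, 11507 bp from its start and just past its 3′ end, was at 19.5 FPM in young and 16.1 FPM in aged HSCs, at -0.28 (-0.46 to -0.10). Those of Nfkb2 (52555 bp from the start, in an intron of Mfsd13a) and Relb (56058 bp, in an untranslated region of Gemin7) were at -0.11 (-0.27 to 0.05) and -0.26 (-0.43 to -0.09).

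The central 200 bases of 6 elements are shown, the 3 with the largest gain, the lowest of Rel and of Nfkb1, and the Rela element that holds a kB match. Each runs 5′ to 3′ on the plus strand of GRCm38. Capitals mark matches on either strand to any of 9 motifs, which were the kB consensus, AP-1 (TGANTCA), its longer CNC form (TGANTCAGC, which contains the AP-1 letters), PU.1 (GAGGAAGT), ETS (CCGGAAGT), RUNX (TGTGGT), STAT (TTCNNNGAA), C/EBP (TTGCNNAA) and the letters AGATAA for GATA factors.
Nfkbia, 5677 bp, higher in aged HSCs, chr12:55486871-55487070: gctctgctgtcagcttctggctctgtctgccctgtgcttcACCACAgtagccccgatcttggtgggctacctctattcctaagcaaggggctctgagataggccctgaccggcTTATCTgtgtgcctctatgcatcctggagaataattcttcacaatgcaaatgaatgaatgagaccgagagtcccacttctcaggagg
Nfkbia, 5332 bp, higher in aged HSCs, chr12:55487216-55487415: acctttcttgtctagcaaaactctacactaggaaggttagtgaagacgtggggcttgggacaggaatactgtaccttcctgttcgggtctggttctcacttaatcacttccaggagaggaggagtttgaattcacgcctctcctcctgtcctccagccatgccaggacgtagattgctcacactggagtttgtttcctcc
Tnfaip3, 6927 bp, higher in aged HSCs, chr10:19008631-19008830: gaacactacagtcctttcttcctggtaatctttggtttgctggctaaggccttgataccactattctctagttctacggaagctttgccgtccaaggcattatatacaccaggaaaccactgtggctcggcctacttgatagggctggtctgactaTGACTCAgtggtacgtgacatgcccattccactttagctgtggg
Rel, 8145 bp, lower in aged HSCs, chr11:23762726-23762925: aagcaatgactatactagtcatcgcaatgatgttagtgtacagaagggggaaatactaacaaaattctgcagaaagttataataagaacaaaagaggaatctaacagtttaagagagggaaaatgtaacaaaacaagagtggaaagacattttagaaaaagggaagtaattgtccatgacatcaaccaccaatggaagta
Nfkb1, 62727 bp, lower in aged HSCs, chr3:135628721-135628920: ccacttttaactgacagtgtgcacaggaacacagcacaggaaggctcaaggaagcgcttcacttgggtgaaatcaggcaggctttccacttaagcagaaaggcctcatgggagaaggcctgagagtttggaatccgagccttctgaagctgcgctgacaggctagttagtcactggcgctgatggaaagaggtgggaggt
Rela, 11507 bp, with a kB match, chr19:5648891-5649090: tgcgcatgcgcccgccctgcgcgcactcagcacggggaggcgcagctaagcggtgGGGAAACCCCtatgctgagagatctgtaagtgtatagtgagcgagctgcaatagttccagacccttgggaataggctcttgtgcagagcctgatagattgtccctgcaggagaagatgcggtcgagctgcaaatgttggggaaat
The first Nfkbia element holds 1 RUNX and 1 GATA match and the Tnfaip3 element 1 AP-1 match. None of the 9 motifs was found in these 200 bases of the second Nfkbia element or of the Rel and Nfkb1 elements.

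Over the 135 peaks around the 8 genes the kB consensus was found in 11 (8.15%, against 5.39% of all peaks), none of them past 1.5-fold. Their median ratio was -0.23, and that of the other peaks around these genes -0.12, whereas over all peaks the medians were -0.03 with the consensus and 0.00 without it. AP-1 matches were in 8 of the 135 (5.93%, against 8.40% of all peaks), of which 3 were among the 8 higher peaks and none among the 9 lower ones. Their median was 0.18, and peaks with AP-1 letters were also higher over all peaks, at a median of 0.13 against -0.01 without them. RUNX matches were in 28 (20.7%, against 20.1%), with 2 of the higher peaks, GATA matches in 15 (11.1%, against 8.43%), with 2 of the higher and 1 of the lower peaks, and PU.1 matches in 9 (6.67%, against 5.77%), with 1 of the lower peaks. The longer CNC form was in 2 (1.48%, against 2.72%), ETS in 1 (0.74%, against 1.04%), STAT in 7 (5.19%, against 6.0%), with 1 of the lower peaks, and C/EBP in 8 (5.93%, against 7.93%), with 1 of the higher peaks. For no motif was the share of matching peaks past 1.5-fold counted over all peaks, so the counts among higher and lower peaks cannot be set against the genome. These are counts of letters in a window and not of bound sites.

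On a fixed grid of 500-bp bins over the same loci, 423 of 2066 bins had at least 50 fragments, and 43 were higher and 29 lower in aged HSCs by 1.5-fold, against 13.3% and 5.0% of all 299411 such bins. Most genes had few such bins, and the shares inside Nfkbiz, Rela and Nfkbia were near the general one. Within Nfkb1, 1 bin was higher and 12 were lower, of 54, and within Rel none was higher and 2 were lower, of 10. Of these bins, 6 in Nfkb1 and 1 in Rel lay outside the peaks with enough fragments. The rest share fragments with those peaks. All are also counted in the gene bodies, so they are not separate losses. Several of the lower ones reached 50 fragments only through the young library. Examples are those with 45 young and 17 aged fragments in Nfkb1 and 37 and 18 in Rel. The higher Nfkb1 bin, with 27 and 31, reached it only through the aged library. Nfkbiz had 5 higher and no lower bins, of 29, Tnfaip3 had 3 higher and none lower, of 12, and Nfkbia had 1 higher and none lower, of 6. Rela had 2 higher bins, of 13, and Nfkb2 and Relb had none in either direction. Both Rela bins, with 28 young and 43 aged and with 21 and 30 fragments, reached the minimum only through the aged library. The same held for 1 bin inside Tnfaip3, with 26 and 32, and for some in the flanks. Downstream of Nfkbia 7 of 31 bins were higher and 1 was lower, the highest with 54 young and 178 aged fragments and a log2 ratio of 2.11. Of these, 2 lay outside the peaks with enough fragments, and the highest overlaps the pair of peaks described above. Summed over the whole 50 kb, however, the downstream flank of Nfkbia was at 111 FPM in young and 112 FPM in aged HSCs, at 0.02 (-0.05 to 0.09). Of the 16 flanks, that downstream of Nfkbiz had the highest ratio, at 43.7 FPM in young and 53.3 FPM in aged HSCs and 0.29 (0.18 to 0.39), and that upstream of Relb the lowest, at 112 and 94.2 FPM and -0.25 (-0.33 to -0.18). The median over the flanks of all genes was -0.03 upstream and -0.02 downstream.

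The rest of the pathway was set beside these genes as 68 further genes in 7 lists, of which 65 had promoters with enough fragments. Past the threshold of 0.32, 6 were higher and 3 lower in aged HSCs, to be read against the 8.35% and 2.60% of all promoters, and the median was -0.05, close to that of all promoters. None of the 4 other inhibitors was past the threshold, with Nfkbib (IkBb) at -0.21, Nfkbie (IkBe) at -0.14 and Nfkbid at 0.00, and none of the 5 IKK kinase genes, with Tbk1 at 0.01, Ikbkb at -0.14 and Chuk at 0.06. The same held for all 17 adaptors and upstream kinases, whose median of -0.05 was that of all promoters and 8 of which lay below it, with Birc2 at -0.04, Map3k14 (NIK, which starts the alternative pathway) at -0.15 and Traf2 at -0.11. Among 11 ubiquitin editors and their partners, Tnip3 was higher, at 0.39 (0.13 to 0.65), and Tnip1, which binds A20, was lower, at -0.35 (-0.52 to -0.18). The most accessible ones, Rnf31 (-0.06), Cyld (-0.07) and Tax1bp1 (-0.11), were not past it.

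Of 7 receptor promoters with enough fragments, Tnfrsf13c, the receptor for BAFF, was lower, at -0.34 (-0.54 to -0.14), and Ltbr, Il1r1 and Tnfrsf1b were at 0.00, 0.04 and 0.06. Its ligand gene Tnfsf13b, which encodes BAFF, had the highest ratio of the pathway, with 155 young and 223 aged fragments, or 4.47 and 8.53 FPM, at 0.93 (0.63 to 1.24). Il1b was at 0.35 (-0.14 to 0.83), past the threshold with an interval that included 0, and Lta was lower, at -0.59 (-1.13 to -0.10), whereas Ltb was at 0.11, Tnf at -0.04 and Tnfsf11 at -0.12. Among 15 target genes, the chemokine gene Ccl2 was at 0.55 (0.35 to 0.74), the cytokine gene Csf2 at 0.40 (0.15 to 0.65) and the adhesion gene Vcam1 at 0.35 (-0.02 to 0.71), and none was past it downwards. The most accessible targets, Zfp36 (-0.05), Bcl2l1 (-0.08) and Gadd45b (-0.01), did not reach it. The 6 pathway promoters that were higher held few fragments, from 76 young and 73 aged at Il1b to 429 young and 473 aged at Ccl2, fewer than any of the 8 promoters described above.

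**Figure D5:**
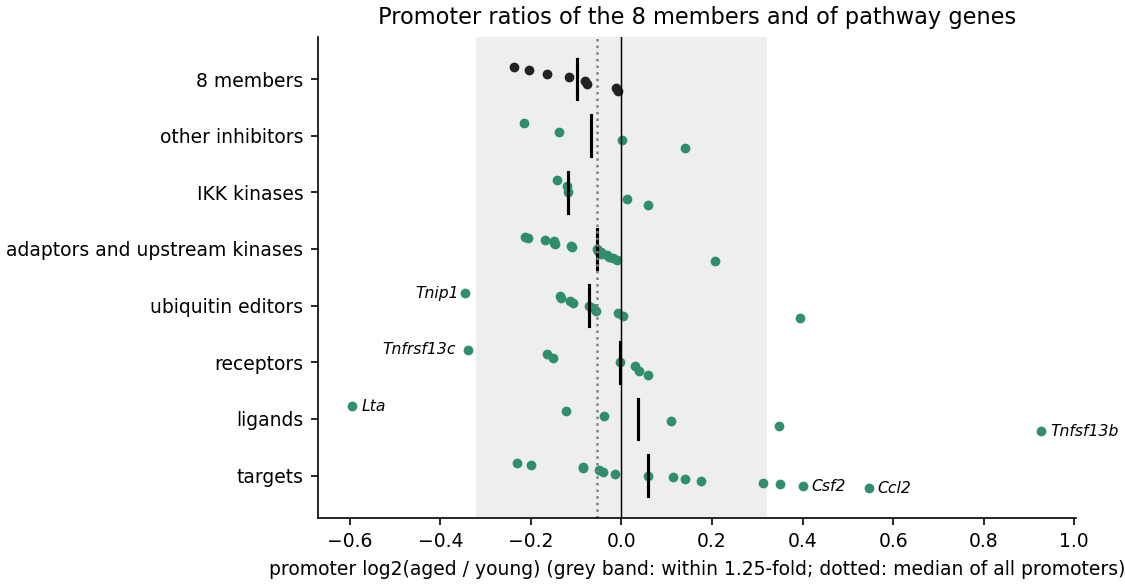
Promoter log2 ratio of aged to young FPM (x axis) of the 8 genes and of 65 further pathway genes by list (rows), with 1 point per gene, a black line at each median, a grey band within the threshold and a dotted line at the median of all promoters. Tnfsf13b (0.93), Ccl2 (0.55) and Lta (-0.59) lie farthest out, and all 8 genes lie within the band.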

How the data were processed

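Libraries were made with the Chromium Next GEM Single Cell ATAC kit v1.1, and the authors ran Cell Ranger ATAC on the reads, with mm10 as reference, and called cells per library. The deposited files hold raw counts, as a list of unique fragments by barcode and a table of fragment counts for every barcode. Groups came from the labels. Peaks were called here on cut sites in windows of 151 bp in steps of 10 bp (Poisson against the larger of the genome mean and 10000 bp around, q under 0.001, gaps up to 50 bp joined, width from 100 bp) and merged over libraries. A region was credited with each fragment that had an end in it. Levels are per 1000000 in-peak fragments, a pseudocount of 1 was used in log2 ratios of aged to young levels, and intervals of ratios are those of the exact binomial (Clopper-Pearson) share of aged fragments. No p-value was computed with 1 library per age. Genes and starts are from GENCODE M21 on GRCm38, of which mm10 is another name. No fragment ended outside a chromosome of that build.

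The 8 genes, the pathway lists and the marker lists were chosen with earlier results of these data known. Named by rule were the pathway genes past a log2 ratio of 0.32, the 3 with the most fragments in each list, the distal peak with the most fragments at each gene and up to 6 peaks with the largest ratios in each direction. Ratios and intervals were tested on simulated Poisson counts. These hold no spread between mice or libraries, so the test does not cover it. Alternatives varied window, start site, scaling, cells, doublets, fragment length, counting, depth per cell, minimum and threshold. Python 3.11.15, numpy 2.4.6, scipy 1.17.1, pandas 2.3.3, pysam 0.24.0 and matplotlib 3.10.9 were used.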

Additional observations from a re-analysis of the deposited data

Results flagged for a closer look

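Barcodes not called as cells also held fragments at the 8 promoters, 688 for young and 573 for aged HSCs. Per 1000000 fragments of these barcodes that is 231 (young) and 110 (aged), against 301 and 269 in the cells used. These barcodes entered no comparison, and whether their fragments come from cells that were not called or from free DNA was not tested.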

How the results depend on the processing

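With 1 library per age no replicate could be left out. No paired analysis was possible because each age has a single library. Of the ratios of single promoters, gene bodies and named peaks under alternative settings, 296 stayed within the counting interval and 14 moved outside it. Counts over all 8 genes or their loci that moved by over 1.5 times were as follows. Shares over all features are given above only for genes without the first 1 kb and for subnucleosomal fragments. The other counts cannot be set against the genome and show only how they depend on the setting. After 1 random thinning to 3000 fragments per cell, 2 promoters and 3 gene bodies were past the log2 threshold of 0.32 downwards, against 0 and 0. With every cell given equal weight instead, an alternative chosen after seeing the data, both counts were 0. Equal weights stand for the average over draws. No second draw was made, so how the calls vary between draws was not tested. Without the first 1 kb of genes, 2 gene bodies were past that threshold upwards and 1 downwards, and the median was -0.047. With a minimum of 200 fragments, 4 peaks were higher and 5 lower by 1.5-fold. The Nfkbia peaks 5677 bp (184 fragments) and 5332 bp (119) from the start and the Rel peak 8145 bp (100) fall below that minimum. At 2-fold, 3 peaks were higher and 1 lower, and 9 bins were higher and 4 lower. The 3 peaks include the Nfkbia pair, which shares fragments. With subnucleosomal fragments alone, 4 peaks were higher and 7 lower, of 108 with enough fragments. With a minimum of 20 fragments, 111 bins were higher and 88 lower, and with 100 fragments 18 and 13. Pathway promoters past that threshold downwards were 5 with a minimum of 20 fragments and 1 with the median promoter set to 0. Without thinning, 91.8% of young and 90.8% of aged cells had a fragment at the 8 promoters. All 13 named peaks past 1.5-fold kept their direction under 6 other settings, which reuse the same fragments. Most had been named for their ratios in these fragments, and several reached the minimum only through the library where they were higher. Keeping direction was therefore close to fixed in advance and lends them no support. The pair of Nfkbia peaks ranged between 2.02 and 2.74 and the Tnfaip3 peak inside the gene between 1.62 and 2.01. The peaks 27692 bp and 45552 bp from Nfkbia and 55532 bp from Tnfaip3 came within 1.5-fold in at least 1 setting, at 0.53, -0.55 and -0.52. Leaving out the 26 shared barcodes, also chosen after seeing the data, moved no count by over 1.5 times. Peaks with fewer than 100 fragments, taken as too shallow, were left out of the peak counts given here.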
